A study of Mus musculus with 9 samples.

Results

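The small leucine-rich proteoglycans and versican were followed across 3 groups of mouse hepatic stellate cells, the vitamin A-storing pericytes of the liver that become collagen-secreting myofibroblasts when activated. All non-control probes named Dcn, Bgn, Lum, Fmod, Prelp, Ogn, Omd, Aspn, Podn or Vcan were taken, which gave 16 probes for the 10 genes out of 56605 non-control probes with 37074 gene or transcript names. Each of 3 genes (Bgn, Prelp and Vcan) had 3 probes and each of the other 7 had 1 probe. Of the 16 probes, 14 passed the filter on dim signals, and these measured 9 of the 10 genes.

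All cells came from C57BL/6 mice aged 10 weeks, and each group had 3 single-colour arrays. The first activated group (si-cav) had grown on plastic for 7 days and then received an siRNA to Cav1, which encodes the caveolar coat protein caveolin-1, overnight at 5 nM. The second activated group (nc) had the same culture and a negative control siRNA at the same dose. The quiescent cells (qhsc) carried no treatment, with no harvest time in the labels, so transfection, time in culture and activation cannot be told apart between them and either activated group. The labels do not say if the 3 arrays of a group are independent isolates, so each p-value reflects only how these samples spread, and part of that may be technical.

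Proteoglycans of this family have a curved core of leucine-rich repeats that lies along collagen fibrils and sets their diameter and spacing. Decorin and biglycan carry chondroitin or dermatan sulfate chains and bind TGF-beta, whereas lumican and fibromodulin carry keratan sulfate and share a binding region on collagen. Versican is built differently, as a large chondroitin sulfate proteoglycan that binds hyaluronan at one end, and it is abundant in provisional and fibrotic matrix. In injured liver, activated stellate cells are a known source of several of these core proteins.

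For 5 probes the reading frame could be recognised from the known protein, and these are printed because they show what part of the message each measured. The place of the other 11 within their transcripts was not determined. Each is a 60-base oligonucleotide written 5′ to 3′ with the leucine codons of the gene's reading frame in capitals. The stop codon of Dcn is in capitals too.
Dcn A_51_P334104: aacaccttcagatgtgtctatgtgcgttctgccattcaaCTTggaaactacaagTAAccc
Bgn A_52_P162486: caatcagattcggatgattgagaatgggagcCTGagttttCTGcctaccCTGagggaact
Prelp A_65_P16773: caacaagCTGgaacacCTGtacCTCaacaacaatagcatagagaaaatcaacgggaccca
Vcan A_52_P168953: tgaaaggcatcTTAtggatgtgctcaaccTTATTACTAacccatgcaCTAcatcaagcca
Vcan A_55_P1960208: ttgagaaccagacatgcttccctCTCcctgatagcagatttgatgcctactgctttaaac

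The Dcn probe lies on the plus strand at chr10:96980233-96980292 (mm9, the build of the probe coordinates). It covers the end of the coding region, with 1 leucine codon before the stop codon. The Bgn probe, on the plus strand at chrX:70738554-70738613, lies within the leucine-rich repeats and holds 3 leucine codons. The Prelp probe also holds 3 leucine codons and spans an intron on the minus strand, at chr1:135809343-135811065. The first Vcan probe, on the minus strand at chr13:89865266-89871120, crosses an intron at the start of the coding region, where 5 leucine codons fall in the stretch for the signal peptide. The second Vcan probe, at chr13:89851810-89851869 on the minus strand, lies in the hyaluronan-binding end of the protein. The brightest Vcan probe, A_55_P2501751, lies downstream of both at chr13:89795080-89795139.

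The other single-probe genes were measured at chr10:97035210-97035269 for Lum, chr1:135943998-135944057 for Fmod, chr13:49719549-49719608 for Ogn, chr13:49687847-49687906 for Omd, chr13:49662479-49662538 for Aspn and chr4:107687484-107687543 for Podn. The brightest Prelp probe was A_52_P486260, at chr1:135806934-135806993. The remaining Bgn probes lie at chrX:70737025-70737084 (A_52_P19711) and chrX:70731578-70731637 (A_55_P2715668), and the remaining Prelp probe at chr1:135806855-135806914.

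The targeted transcript was checked first. Cav1 (probe A_55_P2126662) had log2 signals of -2.87, -2.89 and -3.07 in si-cav cells, -1.34, -1.12 and -1.09 in nc cells, and -4.87, -5.65 and -5.84 in qhsc cells, each relative to the 75th percentile of its array. Its si-cav signals lay below all nc signals, at a log2 change of -1.76 (SE 0.24), with an unadjusted limma p of 4.8e-05 and an adjusted p of 0.145.

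Markers of other cell types differed between the groups. Summed over 12 hepatocyte markers, the linear signal was 1.49 to 1.60 in si-cav cells and 1.49 to 1.69 in nc cells, against 1477 to 1712 in qhsc cells. For 10 sinusoidal endothelial markers the sums were 0.610 to 0.636, 0.584 to 0.698 and 371 to 610 in the same order, and for 10 macrophage markers they were 7.14 to 8.17, 8.84 to 10.0 and 244 to 415. All 12, all 10 and all 10 of these genes fell in nc cells relative to qhsc cells, as did 8 of 8 lymphocyte and neutrophil markers. Sums of 9 mesothelial markers ran the other way, at 28.1 to 30.4 in si-cav cells and 34.5 to 35.6 in nc cells against 1.60 to 2.56 in qhsc cells, with 7 higher and 2 lower in nc cells. Portal fibroblast markers summed to 225 to 237, 217 to 234 and 10.4 to 16.3, with 4 of 9 higher and 4 lower in nc cells, and 6 smooth muscle markers to 22.3 to 24.0, 20.0 to 24.5 and 6.07 to 8.74. The part of these cells in the changes below was not tested, and fewer cells of a type and less RNA per cell cannot be told apart in such bulk samples. Of the stellate quiescence markers, 7 of 10 fell in nc cells relative to qhsc cells, 1 rose and 2 were not called. Of the myofibroblast markers, 9 of 10 rose and 1 was not called. Among all genes, 26% were called lower and 42.1% higher. Des and Gfap were not above background on all 3 arrays of any group.

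Quiescent array 2 stood apart, with 51.5% of probes above background against 58.4 and 58.1% on the other quiescent arrays, and it held the highest stellate and endothelial marker sums and the lowest hepatocyte sum of the 3. All 3 quiescent arrays and nc array 1 shared slide 1, and the other 5 arrays shared slide 2. Changes relative to qhsc cells whose call depends on that array are also given without it below.

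**Figure D1:**
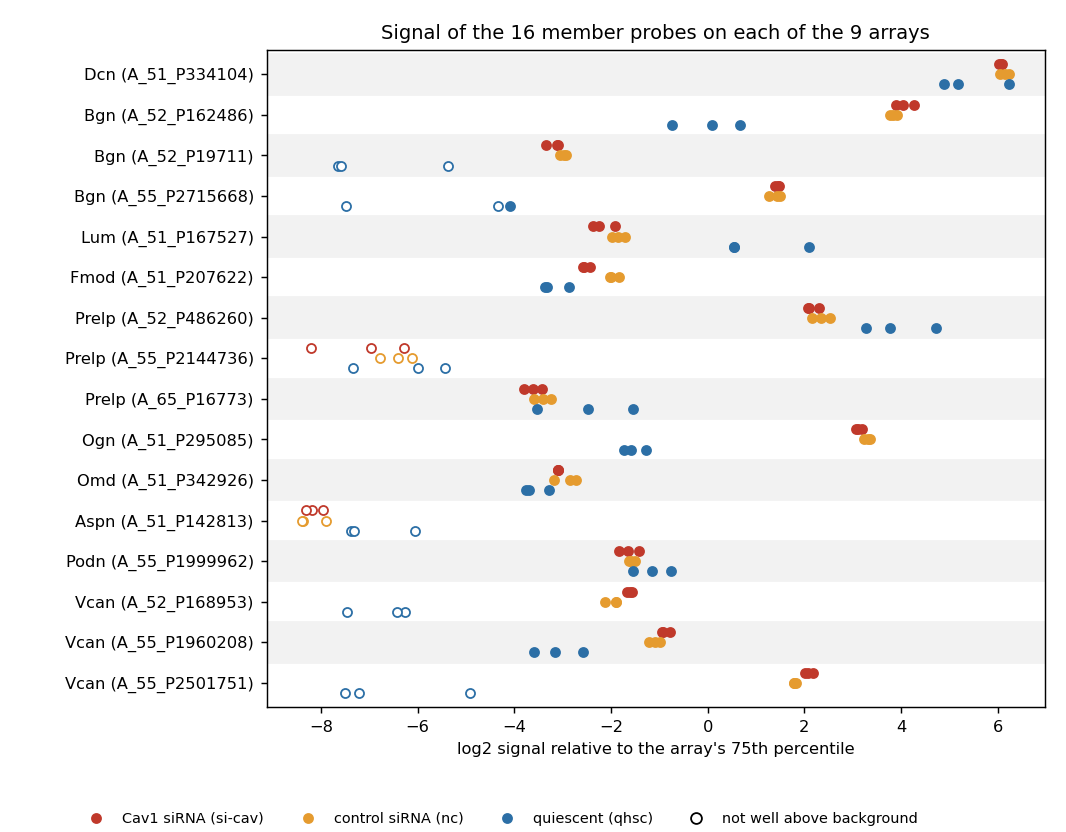
Log2 signal of each of the 16 probes on the 9 arrays, relative to the 75th percentile of the array, with Cav1 siRNA (red) above control siRNA (orange) and quiescent cells (blue) in each row. Open points are spots not well above background. The red and orange points lie close together in most rows, while the blue points lie far to the left for Bgn, Ogn and Vcan and to the right for Lum.

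Members differed in both directions between activated and quiescent cells. In nc cells relative to qhsc cells, Vcan, Ogn, Bgn, Fmod and Omd rose, Lum and Prelp fell, and Dcn and Podn did not pass the test, so that 7 of 9 measured genes were called at a limma adjusted p under 0.05. Across all 23965 genes tested, 68.1% were called, 42.1% higher and 26% lower, so the members' share was near that of all genes. The same 7 genes had groups that did not overlap, 5 higher and 2 lower, against 69.8% of all genes, 42.8% higher and 27% lower. By single probes, 11 of 14 were called, against 67.9% of all probes. Among the called probes, A_52_P19711 of Bgn and A_52_P168953 and A_55_P2501751 of Vcan were above background on no quiescent array. These passed the filter through the activated groups alone. Probes of the same gene are not separate findings either. The median change was 0.72 over the 9 members and 0.32 over all genes, on the log2 scale.

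Among the core proteins with chondroitin or dermatan sulfate chains, decorin was bright in every sample. Dcn signals were 6.08, 6.06 and 6.03 in si-cav cells and 6.14, 6.24 and 6.05 in nc cells, against 5.17, 6.23 and 4.88 in qhsc cells. Quiescent array 2 was level with the activated arrays and the other quiescent arrays were lower, so that the groups overlapped. In nc minus qhsc, the change was 0.72 (SE 0.30, adjusted p 0.0606) and was not called. Without quiescent array 2 it was 1.12, with an adjusted p of 1.2e-04.

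Biglycan, a decorin relative that also acts as a ligand of Toll-like receptors, rose. The coding Bgn probe printed above read 3.89, 4.26 and 4.03 in si-cav cells and 3.84, 3.78 and 3.92 in nc cells, against 0.09, 0.68 and -0.73 in qhsc cells. The lowest activated array lay over 3 log2 units above the highest quiescent one. The nc minus qhsc change was 3.83 (SE 0.31), or 14.3-fold, with an adjusted p of 4.7e-06. The other Bgn probes moved the same way, but most quiescent arrays were not well above background for them. A_52_P19711 had at least 3.96-fold more signal in nc cells, where a bound is the nc mean over the lowest signal counted as above background on each quiescent array, or the probe's own signal if higher. A_55_P2715668, above background on 1 of 3 quiescent arrays, gave a log2 change of 6.70 (SE 0.74).

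Asporin, another relative, was not well above background on any of the 9 arrays. Its processed signals were 2.17, 2.25 and 2.17 in si-cav cells, 2.14, 2.23 and 2.05 in nc cells, and 2.18, 5.94 and 2.42 in qhsc cells, in linear intensity units. It was not tested.

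The keratan sulfate-bearing members split. Lumican fell, and the groups did not overlap. Lum signals were -1.91, -2.25 and -2.37 in si-cav cells and -1.71, -1.86 and -1.97 in nc cells, against 0.55, 2.10 and 0.55 in qhsc cells. Quiescent array 2 was the highest of all. The nc minus qhsc log2 change was -2.91 (SE 0.38, adjusted p 1.3e-04), and it was -2.39 without quiescent array 2.

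Fibromodulin, which competes with lumican for collagen in developing tendon, rose. Fmod signals were -2.56, -2.58 and -2.44 in si-cav cells and -1.84, -2.00 and -2.02 in nc cells, against -2.88, -3.36 and -3.31 in qhsc cells. The 3 groups formed 3 steps with no overlap, with si-cav between the others. The change in nc cells was 1.23 (SE 0.16), or 2.35-fold, with an adjusted p of 1.3e-04. It was 0.48 under normexp with the 75th percentile and 0.80 under normexp with quantile normalization, and was called in both. Within slide 1, where nc array 1 stood alone against the 3 quiescent arrays and was assumed to vary like them, it was 1.35 with an adjusted p of 0.0525.

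Prelp encodes a collagen-binding protein that also attaches to the heparan sulfate of perlecan. Its brightest probe read 2.07, 2.30 and 2.10 in si-cav cells and 2.53, 2.34 and 2.17 in nc cells, against 3.77, 4.72 and 3.28 in qhsc cells. Every quiescent array lay above every activated one. The nc minus qhsc change was -1.58 (SE 0.32, adjusted p 0.0019), and -1.40 with an adjusted p of 0.131 within slide 1. The coding Prelp probe shown above gave -0.90 (SE 0.41, adjusted p over all probes 0.0814), with overlapping groups, and no array was above background for the remaining Prelp probe.

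Osteomodulin, known from bone, was dim. Omd signals were -3.10 on all 3 si-cav arrays and -3.18, -2.85 and -2.73 in nc cells, against -3.77, -3.69 and -3.27 in qhsc cells. The nc arrays lay above the quiescent arrays, the nearest pair by under 0.1. The change of 0.66 (SE 0.18, adjusted p 0.0094) was -0.0071 under normexp with scaling to the 75th percentile, 0.37 with an adjusted p of 0.0163 under normexp and quantile normalization, and 0.40 with an adjusted p of 0.184 with slide as a block.

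Osteoglycin, also called mimecan, is a shorter family member studied in bone and vessel wall. Ogn signals were 3.11, 3.19 and 3.07 in si-cav cells and 3.35, 3.32 and 3.23 in nc cells, against -1.58, -1.27 and -1.74 in qhsc cells. Each group was tight, and the activated and quiescent arrays were far apart. The nc minus qhsc change was 4.83 (SE 0.15), or 28.4-fold, with an adjusted p of 1.3e-08. Podocan, a collagen-binding family member described in kidney and vessel wall, was not called. Podn signals were -1.84, -1.41 and -1.65 in si-cav cells and -1.51, -1.59 and -1.63 in nc cells, against -0.76, -1.54 and -1.15 in qhsc cells. The change from quiescent cells was -0.43 (SE 0.21, adjusted p 0.0956). It was -0.63 with an adjusted p of 0.0122 without quiescent array 2, the array that lay among the activated ones.

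Versican rose on all 3 probes, by amounts that differed between them. Its brightest probe read 2.17, 2.01 and 2.08 in si-cav cells and 1.79, 1.79 and 1.82 in nc cells, against -7.20, -4.91 and -7.49 in qhsc cells, where no array was well above background. The signal was at least 109-fold higher in nc cells and at least 133-fold higher in si-cav cells than in qhsc cells, with limma adjusted p-values of 1.4e-06 and 1.1e-06. This probe passed the filter through the activated groups alone, so its place among the 7 called genes rests on quiescent signals within the background. The signal-peptide probe A_52_P168953 was likewise above background in activated cells only, at least 7.98-fold higher in nc cells.

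The probe in the hyaluronan-binding end was the one Vcan probe above background on all 9 arrays. A_55_P1960208 read -0.95, -0.77 and -0.93 in si-cav cells and -0.98, -1.21 and -1.09 in nc cells, against -2.58, -3.59 and -3.16 in qhsc cells. Its nc minus qhsc change was 2.01 (SE 0.24), or 4.04-fold, with an adjusted p of 5.9e-05.

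**Figure D2:**
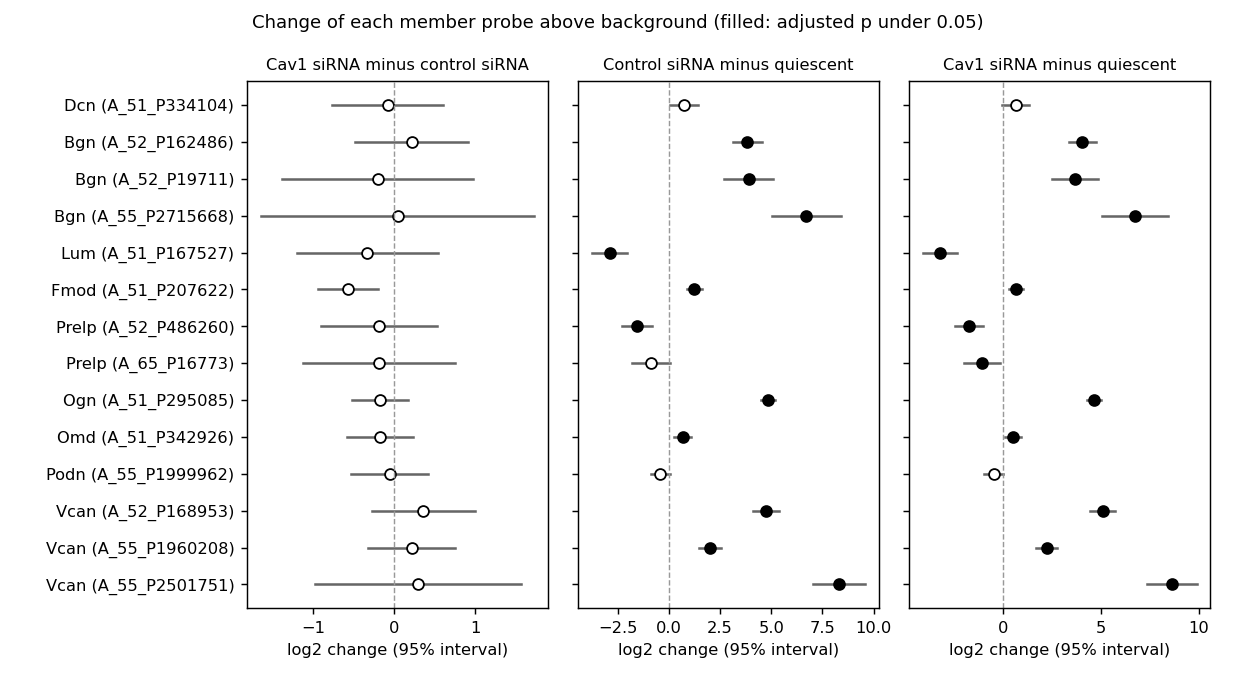
Log2 change of each of the 14 probes above background, with 95% intervals from limma, for si-cav minus nc, nc minus qhsc and si-cav minus qhsc from left to right. The intervals use a spread shared by the 3 groups. Filled points have an adjusted p under 0.05. All points of the left panel are open and lie within 0.6 of 0, on an axis narrower than those of the other panels, while the middle and right panels hold filled points on both sides of 0. Probes not above background in qhsc cells stand at their fitted value, which is no bound.

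Knockdown of Cav1 in activated cells was compared next. None of the 9 members was called in si-cav cells relative to nc cells, and neither was any of the 23965 genes (0% called by limma). Of these genes, 4.96% had an unadjusted p under 0.05. Cav1 itself, at -1.76 without overlap, was not called (adjusted limma p 0.145), so the lack of a call does not show that a gene was unchanged. The fit shared its spread over the 3 groups, where the median SD over genes was 0.12 in si-cav, 0.16 in nc and 0.35 in qhsc cells. The widest member change was that of Fmod, at -0.57 (SE 0.16, 95% interval -0.94 to -0.20), with an unadjusted p of 0.0066 and an adjusted p of 0.691. All si-cav arrays were below all nc arrays for Fmod, and within slide 2 the change was -0.51 with an adjusted p of 0.184. With arrays weighted by their quality it was -0.49 with an adjusted p of 0.0219, a setting that called 656 genes in all.

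Versican was higher in si-cav cells on all 3 probes without overlap, by 0.29 (95% interval -0.98 to 1.56) for the brightest, 0.36 (-0.28 to 1.00) for the signal-peptide probe and 0.21 (-0.32 to 0.75) for A_55_P1960208. None was called, with an adjusted p of 1.00 for each. The intervals here use a spread shared by all 3 groups, not the scatter of the siRNA groups alone. For the brightest Vcan probe the SD was 0.080 in si-cav cells, 0.018 in nc cells and 1.41 in qhsc cells. Its interval thus rests mostly on quiescent signals within the background. With only the si-cav and nc arrays in the fit, its adjusted limma p was 0.217. Ogn was lower without overlap, by a log2 change of -0.18 (-0.52 to 0.17). Such separation was seen in 22.6% of all genes, 8.61% higher and 14% lower. For the other 6 members the groups overlapped, and their changes ran from -0.33 for Lum (-1.20 to 0.54) to 0.21 for Bgn (-0.49 to 0.91). The Bgn probes differed in direction, since A_52_P19711 was lower in si-cav cells without overlap (-0.21, -1.38 to 0.97) and A_55_P2715668 was at 0.04 with overlap.

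Relative to qhsc cells, which serve as the comparison for both activated groups, si-cav cells gave 5 members higher, 2 lower and 2 not called. Of all genes, 67.6% were called in that comparison, 40.4% higher and 27.2% lower, and 71.7% had groups without overlap, 42.7% higher and 29.1% lower. The si-cav minus qhsc changes were 4.65 for Ogn, 4.05 for Bgn, 0.66 for Fmod and 0.48 for Omd, with adjusted p-values of 1.5e-08, 3.2e-06, 0.0057 and 0.0394, beside the bound for Vcan given above. Under normexp with the 75th percentile Fmod was at 0.024 (adjusted p 0.868) and was not called. Lum and Prelp were lower, at -3.24 and -1.77, with adjusted p-values of 6.2e-05 and 9.5e-04. Dcn and Podn were at 0.63 and -0.49, with adjusted p-values of 0.0916 and 0.0653. Without quiescent array 2 they were at 1.03 (adjusted p 1.9e-04) and -0.68 (adjusted p 0.0081) and were called, while Omd, at 0.42 (adjusted p 0.0802), was not. No slide held arrays of both groups, so the slide enters through the nc arrays. With slide as a block, Bgn, Lum, Ogn and Vcan were called and Fmod (0.83, adjusted p 0.056), Prelp (-1.50, adjusted p 0.0832) and Omd (0.087, adjusted p 0.841) were not.

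Several members are neighbours in the genome, and neighbours changed differently. In RefSeq's gene order Dcn, Lum, Kera and Epyc follow each other on chromosome 10, Optc, Prelp and Fmod on chromosome 1, and Ecm2, Aspn, Omd and Ogn on chromosome 13. The nc minus qhsc change of Dcn exceeded that of its neighbour Lum by 3.63 log2 units, that of Fmod exceeded Prelp by 2.81, and that of Ogn exceeded Omd by 4.17. Each difference had an exact two-sided permutation p of 0.1 over 3 arrays against 3 (3 pairs compared), the smallest that 3 against 3 allows. The test therefore cannot grade these differences. For Fmod minus Prelp it also gave 0.1 in si-cav minus nc, at a difference of -0.38. All these differences used the brightest probe of each gene. The coding Prelp probe A_65_P16773 changed by -0.90 in nc minus qhsc (limma adjusted p 0.0814), less than the brightest (-1.58). With it the Fmod and Prelp difference would be smaller. Ecm2, beside Aspn, fell to a mean of -7.01 in nc cells, against -2.14 in qhsc cells (fitted change -4.87), with 1 of 3 nc arrays above background, while Ogn rose at the other end of that cluster. Optc was called higher, but no quiescent array was above background and its nc mean did not exceed the lowest signal counted there, so no rise can be given. Kera and Epyc were not above background on all 3 arrays of any group.

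**Figure D3:**
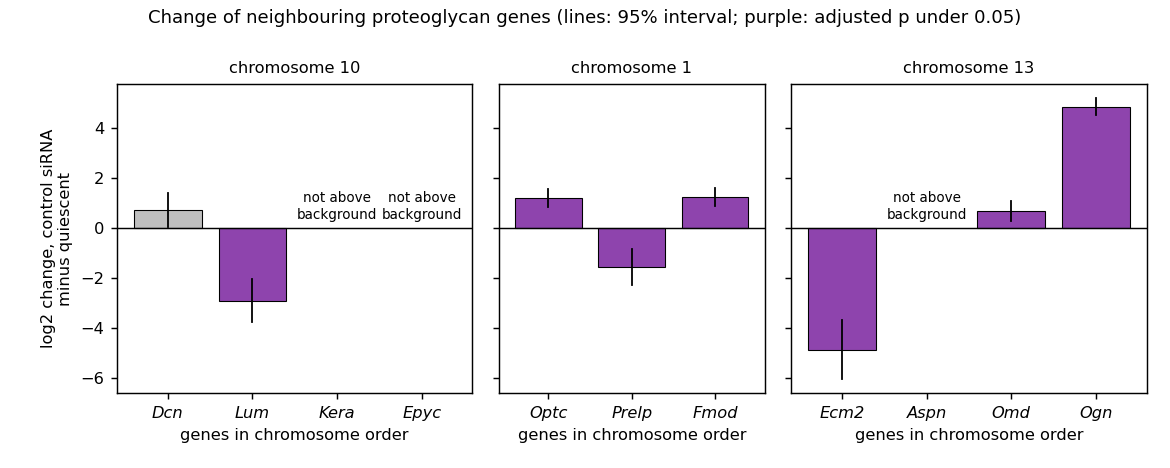
Log2 change in control-siRNA cells minus quiescent cells for neighbouring genes in chromosome order on chromosomes 10, 1 and 13, with 95% limma intervals as lines. Purple bars have an adjusted p under 0.05. Lum and Prelp fall beside Dcn and Fmod, and Ecm2 and Ogn (4.83) lie at opposite ends of 1 cluster. Optc and Ecm2 stand at fitted values that rest on arrays below background.

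For the 8 members above background on all 9 arrays with their brightest probe, which leaves out Vcan and Aspn, the genes with the nearest profile were sought among the 16776 such genes, by the root mean square difference of mean-centred log2 signals. Tubb6 (0.13) and S100a11 (0.15) were nearest to Bgn, Lrrc75a (0.096) and Prkar2b (0.12) to Ogn, Kcnj8 (0.16) and Art4 (0.17) to Lum, Colec11 (0.11) and Malt1 (0.12) to Prelp, and Ccdc92 (0.14) and Igfbp6 (0.15) to Fmod. The gene nearest to Dcn was Clca3a2 (0.081), with a long intergenic transcript second (0.085). Omd was nearest to Wipf2 (0.097) and Rbm8a (0.098), and Podn to Mospd3 (0.091) and 9530077C14Rik (0.094). Among these 8 members themselves the nearest pair was Fmod and Omd (0.36), followed by Dcn and Omd (0.44), Dcn and Fmod (0.47) and Bgn and Ogn (0.48). The distance is not scaled to how much a gene varies. Over the 9 arrays Omd, Dcn and Fmod ranged over 1.04, 1.36 and 1.53 log2 units, against 4.99 for Bgn and 5.09 for Ogn. A small distance between genes that vary little therefore does not show a shared profile.

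Genes for the linkage region and for chondroitin and dermatan sulfate chains were mostly higher in activated than in quiescent cells. The related lists, here and below, were tested with the main processing only. Of 29 genes for the linkage region, chondroitin and dermatan sulfate chains and sulfate supply, 27 were measured, and 17 rose and 7 fell in nc cells relative to qhsc cells, beside 42.1% and 26% of all genes. Their median log2 change was 0.96, against 0.32 over all genes. Chpf, the chondroitin polymerizing factor, averaged 4.82 in nc cells, against -0.15 in qhsc cells, a change of 4.97, and Pxylp1, a phosphatase of the linkage xylose, changed by 4.26. Chst7, a chondroitin 6-O-sulfotransferase, averaged -5.72 in nc cells, against 1.84 in qhsc cells (-7.56), and Papss2, which makes the sulfate donor, changed by -3.93. Of 6 keratan sulfate genes measured, 3 rose and 2 fell (median 0.41), with the sulfotransferase Chst1 at 3.17 and B4galt4 at 1.20, and the sulfotransferases Chst2 at -2.18 and Chst4 at -0.81.

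Of 11 genes for proteases that cut versican or trim propeptides and for the propeptidase enhancer Pcolce, 7 were measured. Of these, 5 rose and 1 fell in nc cells relative to qhsc cells, where 42.1% of all genes were called higher and 26% lower. Adamts5, a versican- and aggrecan-cleaving enzyme, was at least 12.8-fold higher in nc cells, and Tll1, a tolloid-like propeptidase, at least 21.1-fold higher. Neither was above background on any quiescent array. Adamts1, another versican-cleaving enzyme, averaged -0.21 in nc cells, against 3.70 in qhsc cells, a change of -3.91. The median of the 7 changes was 4.34, or 3.68 with bounded genes at their bound.

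Of 9 other leucine-rich proteoglycan genes, 6 were measured, of which 2 were called higher and 2 lower in nc cells relative to qhsc cells. Of all genes, 42.1% were called higher and 26% lower. Chadl changed by 2.67 and Chad by -1.74, and the calls of Optc and Ecm2 rest on arrays below background as described above. Of the versican relatives and link proteins, 2 of 7 were measured. Hapln4 was called higher, but no quiescent array was above background and its nc mean gave no bound above 1, and Hapln3 was not called (-0.09). Among 20 other proteoglycans, 10 rose and 6 fell (median 0.80), near the shares of all genes given above. The glypican Gpc6 was at 4.18 (above background on 1 of 3 quiescent arrays) and the syndecan Sdc1 at 2.92. Srgn, the serglycin of blood-cell granules, changed by -8.19, and Esm1, the endothelial proteoglycan endocan, was at least 258-fold lower in nc cells. These are genes of cell types whose markers also fell in nc cells, and their part was not tested.

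Receptors and ligands of the family changed in all 16 cases, 12 higher and 4 lower, with a median of 3.46, where 68.1% of all genes were called, 42.1% higher and 26% lower. Col1a1, Col1a2 and Col3a1 of this list are also among the myofibroblast markers counted above. Tgfb3 averaged 4.68 in nc cells, against -1.87 in qhsc cells (6.55), and the collagen chain Col1a1 averaged 6.88 in nc cells, against 0.99 in qhsc cells (5.89). P2rx7, a purinergic receptor engaged by biglycan in macrophages, changed by -4.99, and the Toll-like receptor Tlr2 by -3.45. Macrophage markers fell in the same cells, and their part in these falls was not tested. No gene of any of these lists was called in si-cav cells relative to nc cells, where the lists' medians lay between -0.34 and 0.04.

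**Figure D4:**
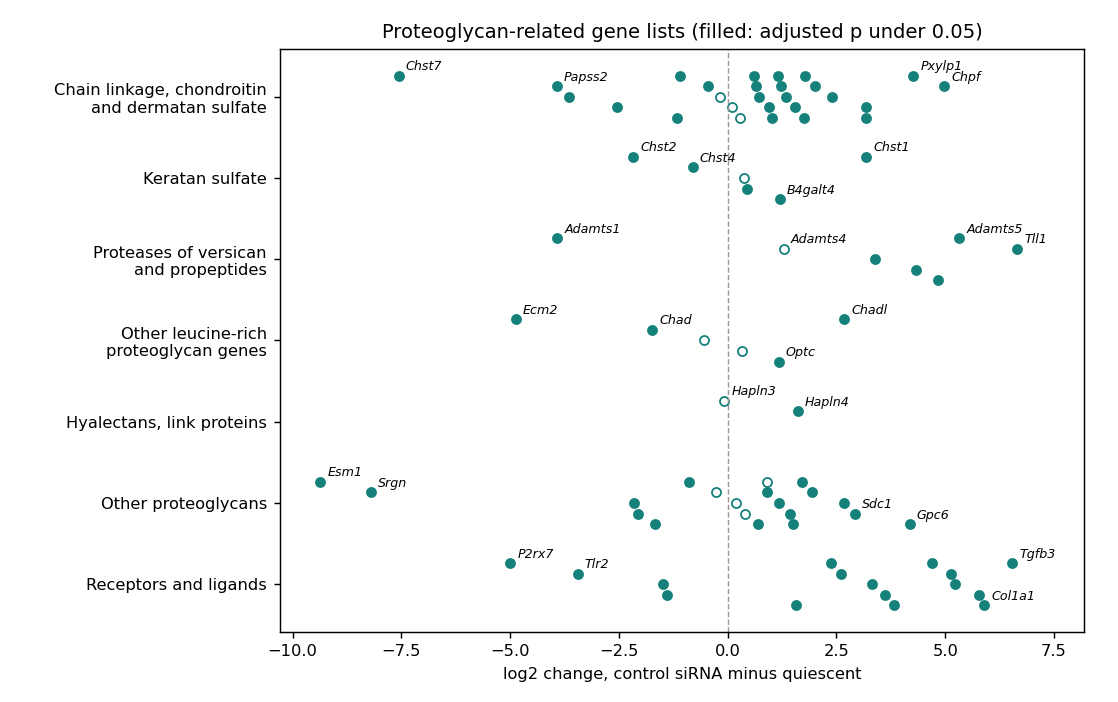
Log2 change in control-siRNA cells minus quiescent cells for each measured gene of 7 lists related to these proteoglycans, with filled points for an adjusted p under 0.05 and names for the outermost genes of each list; genes below background in a group stand at their fitted value. Genes for chain linkage, chondroitin and dermatan sulfate lie mostly right of 0 with Chst7 far to the left, and receptors and ligands lie from -4.99 (P2rx7) to 6.55 (Tgfb3).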

How the data were processed

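RNA of 9 samples (3 each of si-cav, nc and qhsc) was labelled with Cy3 from 0.2 µg, per the labels' protocols. Scans were quantified by Agilent's Feature Extraction software (version 10.7.1.1), as the file headers state. The deposited processed signal gives each spot's intensity after background subtraction, with no scaling across arrays, per the file headers. Deposited mean signals, local background intensity and flags were also read.

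The log2 of each intensity was taken and the array's 75th percentile over non-control spots removed. Probes entered where all 3 arrays of some group had 0.5 or more of the probe's spots well above background. Every member probe had 1 spot, and none was an outlier or saturated. Each gene was represented by its brightest probe (23965 genes). Names were updated through RefSeq's GRCm38.p6 gene table, used for names and gene order only (43738 of 56605 probes had a symbol there); no annotation of mm9 was used. Each comparison used limma 3.58.1 (lmFit and eBayes on the 9 arrays, two-sided) in R 4.3.3. Benjamini-Hochberg adjustment ran over all genes, or over all 36817 probes for tests of single probes, with calls at an adjusted p under 0.05. The calling was tested on simulated data for nc minus qhsc only, with larger changes than those of the members between si-cav and nc. It does not bear on the calls in si-cav minus nc. The number of arrays and, for dim probes, the background limit the precision.

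Members and lists were chosen with earlier results of these data known. All 10 members and Cav1 were named, with the called genes of the 2 largest rises and 2 largest falls in each list, single markers, and the 2 nearest profiles of each member. Alternatives changed the background correction, scaling, filter, probe choice, slide, replicate block, spread and the arrays left out. Python 3.11.15 with matplotlib 3.10.9 drew the figures.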

Additional observations from a re-analysis of the deposited data

How the results depend on the processing

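The changes of Bgn, Lum, Ogn and Vcan in nc cells relative to qhsc cells kept their direction and stayed called in all 23 alternatives, at 3.46 to 4.81, -3.17 to -2.39, 4.37 to 4.98 and 2.01 to 9.15 on the log2 scale. The Vcan range mixes probes. Its 2.01 is that of A_55_P1960208, used where genes had to be above background on all 9 arrays. The mean of its kept probes gave 5.03. Where the brightest Vcan probe was used, the calls rest on quiescent signals within the background. Fmod (0.48 to 1.39) and Prelp (-1.90 to -1.18) were called in 22 of 23, Dcn in 6 and Podn in 3. Omd was called in 20 of 23 and turned to -0.0071 under normexp with the 75th percentile; its si-cav minus qhsc change turned to -0.16 there and was lost in 12 other alternatives of 22. That setting moved the median nc minus qhsc change of all genes to -0.12, against 0.32, and the share of calls that were higher to 46.2%, against 61.8%; with no filter the share was 47.0%. The si-cav minus qhsc shares were 45.1 and 46.2% in those settings, against 59.8%. Median scaling moved the median of all genes to 0.47 for nc minus qhsc and to 0.52 for si-cav minus qhsc, against 0.27. With no filter, 10879 genes were called lower in nc cells and 10627 in si-cav cells, both relative to qhsc cells, among 36952 tested. Within slide 1, 7615 genes were called in nc cells, 4158 higher and 3457 lower, with 4 members, on fewer arrays. With slide as a block, si-cav minus qhsc gave 10141 calls, 5845 higher and 4296 lower, with 4 members; the cause was not tested.

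For si-cav minus nc, calls were 7 under normexp with the 75th percentile, 5 under normexp with quantile normalization, 6 with genes above background on all 9 arrays, 5 with only those groups in the fit and 4 with an intensity trend and robust spread, all of them lower. Array weights gave 656 calls, 95 higher and 561 lower, with 1 member (Fmod). Leaving out 1 array at a time gave 0 to 2 calls, all lower, the 2 without quiescent array 1. Members called ranged from 7 to 9 for nc minus qhsc and from 6 to 8 for si-cav minus qhsc when 1 array was left out. Over all 23965 genes, 14589 to 16823 and 14495 to 16781 were called in these fits, so most genes were called there too.

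Arrays share replicate numbers across groups, but deviations of same-numbered arrays correlated at -0.11 to 0.17, so the numbers were not taken to pair them. With the replicate number as a block, 15837, 0 and 15732 genes and 7, 0 and 7 members were called for nc minus qhsc, si-cav minus nc and si-cav minus qhsc, and no member's call changed.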
